A study of Mus musculus with 3 samples.

Results

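Mki67, the gene of the proliferation marker Ki-67, was higher in the library of GMTMS-induced cardiomyocytes than in that of infarct fibroblasts. Of the 18 other G2/M genes read beside it, 16 had differences below 0 between the same libraries, where 55.3% of all tested genes did. The genes described here are 45 named drivers, inhibitors and effectors of the cell cycle, taken by gene symbol from the 54532 genes of the deposited tables. All 45 symbols were found once, and all 45 passed the filter of over 10 counts in at least 1 library that left 15451 genes in all. They were read as 9 G1 drivers, 9 S-phase genes, 19 G2/M genes and 8 inhibitors.

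RNA was sequenced from 3 mouse libraries, 1 for each condition, and without replicates the differences carry no p-value. MICFs are fibroblasts of the infarcted heart of Myh6-mCherry mice. The mice were 8 weeks old when the left anterior descending artery was ligated, and the cells were isolated 5 days later and cultured without virus for the same 4 weeks as the induced cells. GMTMS-iCMs are induced cardiomyocytes made from such MICFs with viruses for Gata4, Mef2c, Tbx5, Myocd and Sall4, kept in doxycycline at 1 µg/ml, and sorted after 4 weeks for mCherry, a reporter driven by the Myh6 promoter. GMTMM-iCMs were made and sorted in the same way with Mesp1 in place of Sall4. Each iCM library is a mixture of 5 sorted samples, whereas no sort of the MICFs is described. In the paper's flow cytometry, at a time before this sort, mCherry-positive cells were a small minority of GMTMS-infected MICFs. Its text gives no such share for GMTMM.

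The library totals were 10624118 to 11904484 counts. The delivered factors went against 1 label: Sall4 was at 0 counts in MICFs and 1190 in GMTMS-iCMs but also 1060 in the library labelled GMTMM, and Mesp1 had 0 counts in all 3 libraries. That library is therefore called the library labelled GMTMM throughout, and directions drawn from it are those of a library in which Sall4 was read. Where 3 values stand together they are in the order MICFs, GMTMS-iCMs, library labelled GMTMM. The 8 cardiomyocyte markers summed to 1.28, 1318 and 494 FPKM, and 5 of the 8 had 0 counts in MICFs. The 8 fibroblast markers summed to 1383, 198 and 2580 FPKM, and the 8 endothelial markers to 445, 13.3 and 350 FPKM. In every library the 8 macrophage markers had the highest sum of the marker lists, at 8369, 17260 and 8187 FPKM. Lyz2 was the highest of them, at 6135, 11350 and 5495 FPKM. The names MICFs and iCMs are those of the labels. Smooth muscle markers summed to 236, 402 and 537 FPKM, and lymphocyte markers to 0.231, 0.362 and 3.16 FPKM. Y-linked genes had 0, 1630 and 1926 counts and Xist 11855, 5279 and 1618, so the libraries differ in the sexes of the animals they came from. The part that any of these mixtures takes in the differences below was not tested.

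Passage through the cell cycle is driven by cyclins and their kinases. D cyclins with CDK4 or CDK6 release E2F factors from the retinoblastoma proteins in G1, E2F targets then build the replication machinery, and cyclins A and B with CDK1 and the mitotic kinases carry the cell through division. CDK inhibitors of the Cip/Kip and INK4 families hold the kinases back, and Ki-67, which coats mitotic chromosomes, is used as a marker because it is made in cycling cells and declines in resting ones. Cardiac fibroblasts divide after an infarct, and adult cardiomyocytes rarely do.

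Differences are on 1 scale, quantile-normalized log2 (FPKM + 1). A gene was said to have risen or fallen when its difference was over 1 in that direction. The added 1 shrinks differences at low FPKM, so whether a gene passed depends on its level as well as its fold. Folds are ratios of deposited FPKM, and their 95% Clopper-Pearson intervals rest on the counts and cover counting error only. In bulk RNA, fewer cells of a type and less RNA per cell cannot be told apart.

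Between GMTMS-iCMs and MICFs, 2 of the 45 genes rose, Mki67 and Cdk6, where 9.06% of all tested genes rose. Another 7 fell, namely Ccnd1, Ccnd2, Ccnd3, Cdk4, Mcm6, Ccna2 and Cdc20, against 8.8% of all tested genes. Without regard to size, 36 of the 45 differences were below 0, where 55.3% of all tested genes were, and the median difference was -0.35 over the 45 genes and -0.07 over all tested genes. The 3 D cyclins of the set all fell, 1 of the 9 S-phase genes fell, and 2 of the 19 G2/M genes fell. None of the 8 inhibitors passed a difference of 1.

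The library labelled GMTMM lay closer to MICFs. Mki67 alone rose, where 6.45% of all tested genes did, and Ccnd1 alone fell, where 3.55% did. There, 29 of the 45 differences were below 0 against 56.7% of all tested genes, a share close to the background. The median difference of the 45 genes was -0.10, beside -0.08 over all tested genes.

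Set directly against the library labelled GMTMM, GMTMS-iCMs had 3 members higher by over 1, Mki67, Cdk6 and Rb1, where 6.16% of all tested genes were. Lower by over 1 were 4 members, Ccnd2, Ccna2, Cdc20 and Cdkn2b, where 9.18% of all tested genes were. Of the 45 differences 33 were below 0, against 45.1% of all tested genes, with medians of -0.34 over the 45 genes and 0.06 over all tested genes. The 3 comparisons share libraries, so their values are given side by side and not as support for each other.

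**Figure D1:**
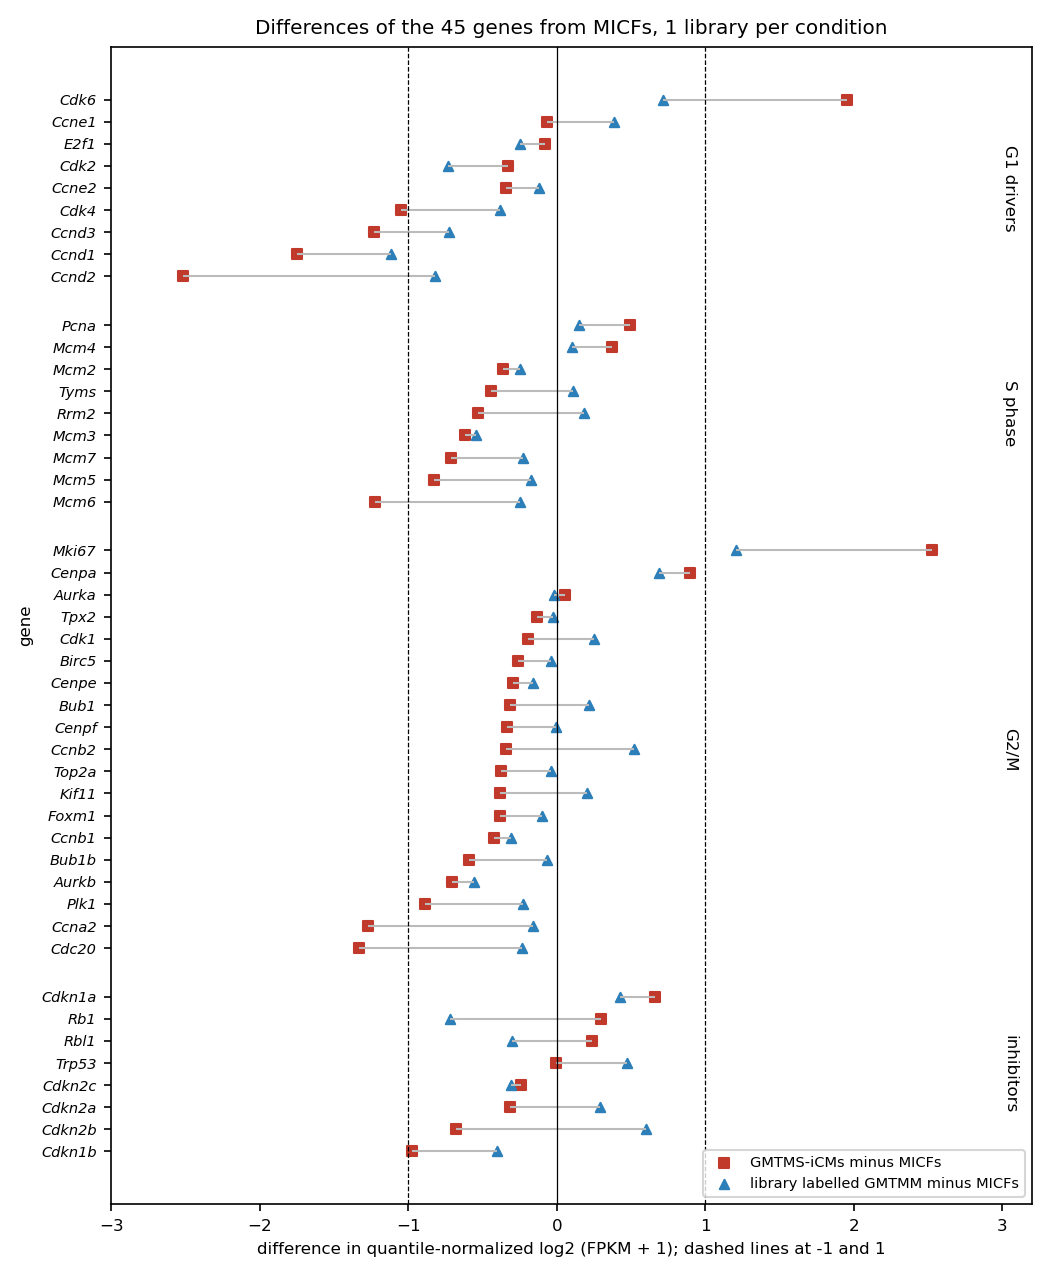
Difference of each of the 45 genes from MICFs in quantile-normalized log2 (FPKM + 1) on the x axis, for GMTMS-iCMs (squares) and the library labelled GMTMM (triangles), with 1 library per condition and no error bars; genes are grouped by phase, and dashed lines mark differences of -1 and 1. Mki67 (2.52) and Cdk6 (1.95) stand to the right in GMTMS-iCMs and Ccnd2 (-2.52) farthest to the left, while most other G2/M genes lie between -1 and 0.

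Mki67 (ENSMUSG00000031004, chromosome 7 from 135689784 to 135716361, minus strand, GRCm38) was read at 665, 3165 and 1432 counts. Its levels were 4.59, 33.9 and 12.2 FPKM. It rose by 2.52 in GMTMS-iCMs, a ratio of 7.37 (6.78 to 8.03). The rise was 1.21 in the library labelled GMTMM, a ratio of 2.65 (2.42 to 2.91). Among all tested genes, 257 (1.66%) had a difference at least as high in GMTMS-iCMs, against 751 (4.86%) for the other iCM library. With FPKM recomputed on library totals the ratios were 5.31 and 2.15, and the difference of the second, 0.98, no longer passed 1.

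Within a library the same gene moved through the order of the G2/M genes. Mki67 was the fourth most abundant of the 19 by FPKM in MICFs and the most abundant in both iCM libraries. Its ratio to Top2a, the topoisomerase that untangles sister chromatids and is often counted beside Ki-67 as a mark of dividing cells, was 1.01, 11.4 and 2.74. Its ratio to the median of the other 18 G2/M genes was 1.81, 29.3 and 5.45. These ratios are taken inside 1 library and so do not depend on how libraries were scaled to each other. In GMTMS-iCMs, Mki67 by itself came to 0.919 of the summed FPKM of the other 18, from 0.0896 in MICFs. The summed FPKM of all 19 was 55.9, 70.7 and 67.9, and without Mki67 it was 51.3, 36.8 and 55.7. Whether the sum in GMTMS-iCMs lay above MICFs depended on the scaling: with FPKM on library totals it was 67.8, 61.8 and 66.6 with Mki67 and 62.2, 32.2 and 54.7 without it.

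**Figure D2:**
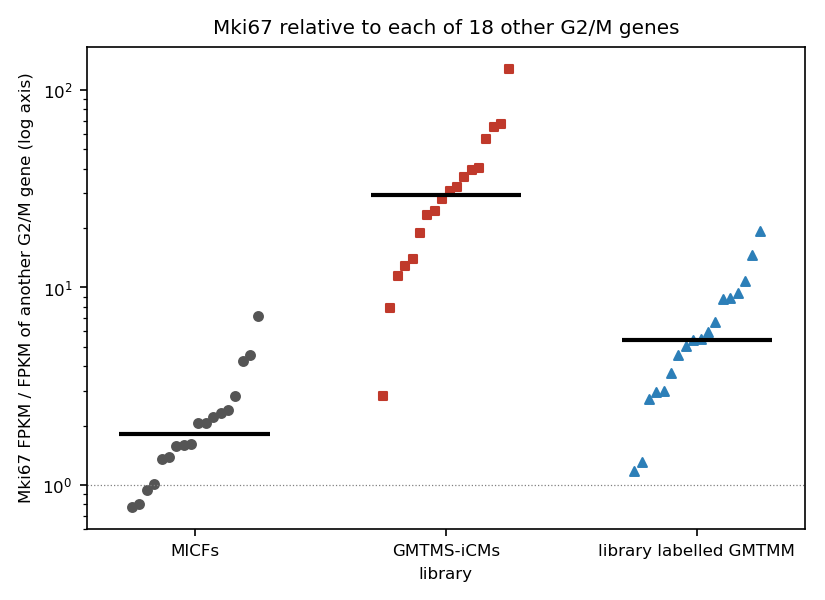
FPKM of Mki67 divided by the FPKM of each of the 18 other G2/M genes in the same library (y axis, log scale), by library on the x axis; each point is 1 of the 18 genes in order of its ratio, bars are medians, and the dotted line marks a ratio of 1. The medians from left to right were 1.81, 29.3 and 5.45, and all 18 ratios lie above 1 in both iCM libraries.

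Of the other 18 G2/M genes, 16 had differences below 0 in GMTMS-iCMs, beside 55.3% of all tested genes. On library totals 17 of the 18 were lower than in MICFs, beside 72.0% of all tested genes. Ccna2, the cyclin A of S phase and mitosis, had 169, 19 and 115 counts. It fell by 1.27 in GMTMS-iCMs, a 5.74-fold lower FPKM (3.56 to 9.77), and its difference was -0.16 in the library labelled GMTMM. Cdc20, the activator of the anaphase-promoting complex, had 131, 21 and 89 counts and fell by 1.33 in GMTMS-iCMs, 4.03-fold lower (2.53 to 6.72), beside -0.24. In both genes GMTMS-iCMs were low against both other libraries, by 1.11 and 1.10 against the library labelled GMTMM. The counts of 19 and 21 make these the least precise of the calls, and 12.5% of the exon bases of Ccna2 lie under an antisense gene, Exosc9.

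The mitotic kinases and their partners had smaller differences on this scale. Plk1, the polo-like kinase of mitotic entry, had 90, 19 and 57 counts and differences of -0.89 and -0.23 from MICFs. Aurkb, the catalytic subunit of the chromosomal passenger complex, had 95, 23 and 39 counts, with -0.70 and -0.56, and Birc5 (survivin), a subunit of the same complex, had 109, 46 and 81 counts, with -0.26 and -0.04. Aurka, the spindle pole kinase, had 72, 42 and 54 counts and differences of 0.06 and -0.02. None of these 4 passed a difference of 1, but Plk1 was 3.06-fold and Aurkb 2.67-fold lower in FPKM in GMTMS-iCMs. Mcm6 and Cdk4, which fell, were 2.50-fold and 1.66-fold lower, and Birc5 and Aurka were 1.53-fold and 1.11-fold lower. The intervals of the FPKM ratio in GMTMS-iCMs lay away from 1 for Plk1 (1.85 to 5.31-fold lower), Aurkb (1.68 to 4.41) and Birc5 (1.07 to 2.21) but not for Aurka.

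Cdk1, the kinase that drives mitosis, was read at 236, 112 and 237 counts, with differences of -0.19 and 0.25 from MICFs. Its partners Ccnb1 and Ccnb2 had 126, 43 and 69 counts and 131, 61 and 166 counts. The differences were -0.42 and -0.31 for Ccnb1 and -0.35 and 0.52 for Ccnb2, so Ccnb2 was the one of the pair whose value lay above MICFs in the library labelled GMTMM. Ccnb1 is uncertain, because 42.1% of its 50-base words also occur in other genes. Foxm1, a transcription factor for G2/M genes, had 134, 46 and 92 counts with differences of -0.38 and -0.10.

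Top2a had 590, 248 and 468 counts, or 4.55, 2.96 and 4.45 FPKM, and differences of -0.37 and -0.04. The checkpoint kinases Bub1 and Bub1b differed by -0.32 and -0.59 in GMTMS-iCMs, and the spindle genes Kif11 and Tpx2 by -0.38 and -0.13. In the library labelled GMTMM these 4 lay between -0.07 and 0.22. The kinetochore genes Cenpe and Cenpf were at -0.30 and -0.33 in GMTMS-iCMs. Both were among the least abundant members, at 0.600 and 0.265 FPKM there, where the added 1 shrinks differences. Their FPKM were 1.80-fold (1.29 to 2.56) and 2.41-fold (1.68 to 3.55) lower than in MICFs. The folds were 1.94 and 2.10 for Bub1 and Bub1b, and 1.83 and 1.29 for Kif11 and Tpx2, all lower.

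Cenpa, the histone H3 variant that marks centromeres, was the other G2/M gene with a clear excess in the iCM libraries. Its counts were 485, 653 and 712, and the FPKM ratios to MICFs were 2.09 (1.85 to 2.35) and 1.81 (1.61 to 2.03). Its differences of 0.90 and 0.69 did not pass 1. Unlike Mki67, it differed little between the iCM libraries, by 0.21 against 1.32. Mki67 and Cenpa were the 2 G2/M genes above MICFs in GMTMS-iCMs under every setting tried, and 16 of the 19 were below under every setting. Over all tested genes 55.3% were below 0 there on the scale used above, and 72.0% on library totals.

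**Figure D3:**
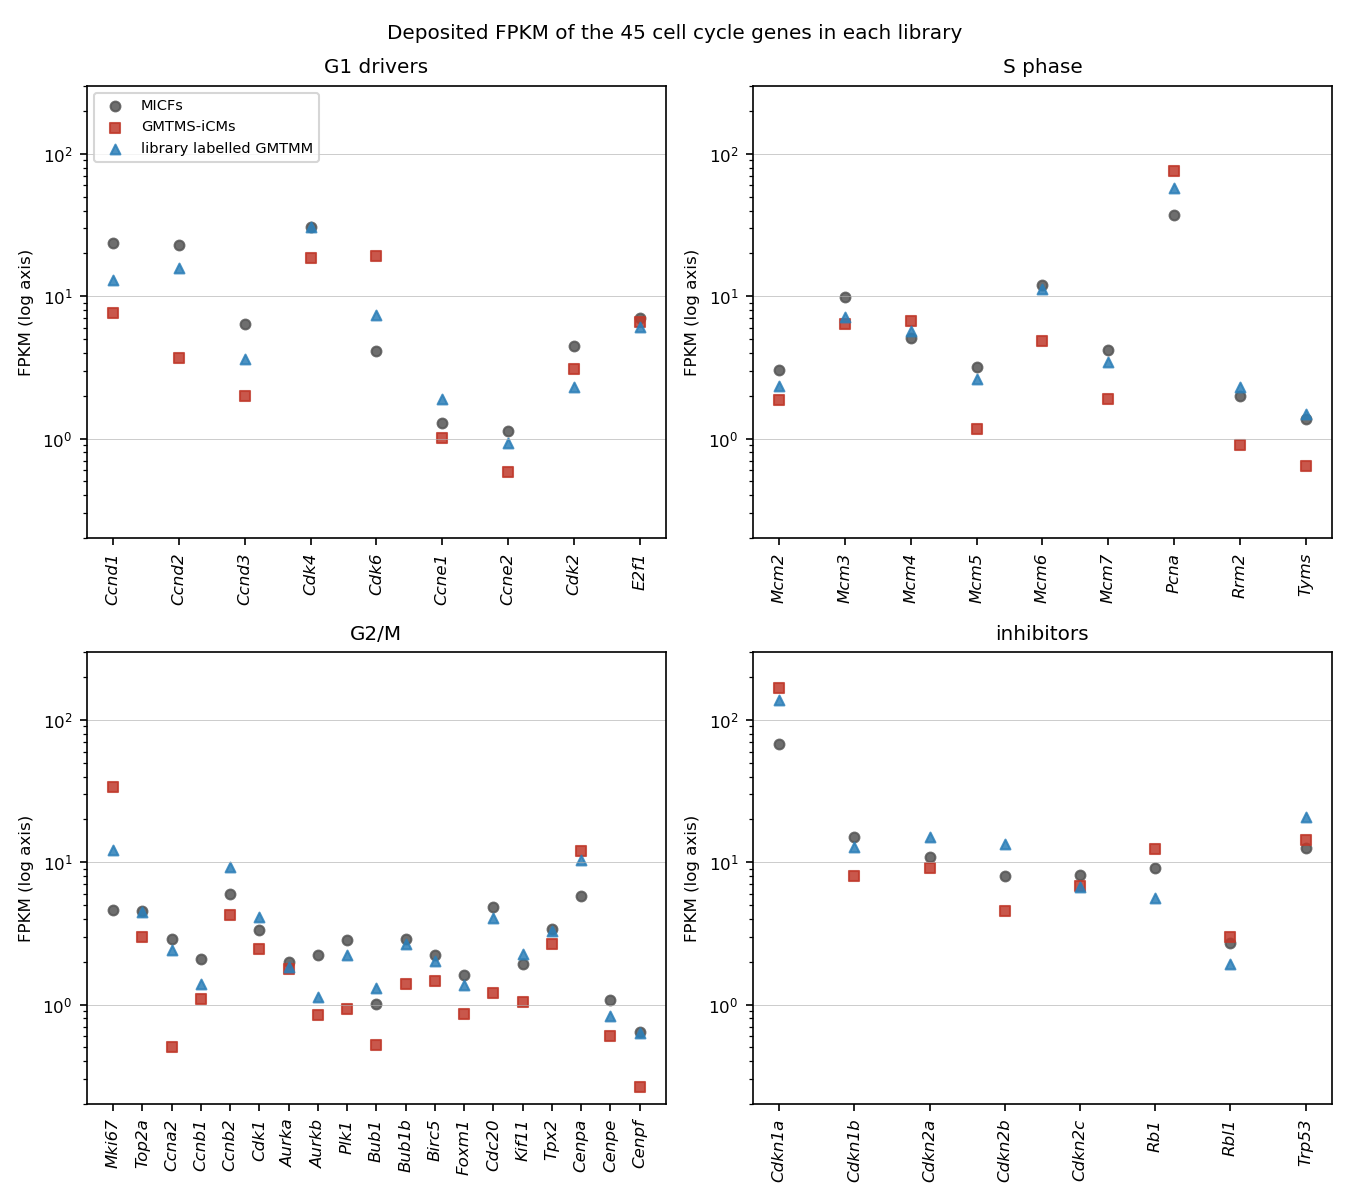
Deposited FPKM of each of the 45 genes (y axis, log scale) in MICFs (circles), GMTMS-iCMs (squares) and the library labelled GMTMM (triangles), 1 library per condition and no error bars, in panels by phase. In the G2/M panel the square of Mki67 (33.9 FPKM) lies far above its circle (4.59 FPKM), and the squares of most other genes lie below theirs.

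The promoters are shown because cell cycle genes share short elements that tie them to a phase. The CHR element (TTTGAA here) and the CCAAT box are read in G2/M promoters by the DREAM and MuvB complexes and NF-Y, and E2F sites (TTTGGCGC or TTTCGCGC here) mark G1/S promoters. RefSeq promoter windows of 250 bases before to 50 after the start, on GRCm38.p6, were matched for 36 of the 45 genes, and both strands were searched. Of the 15 matched G2/M promoters, 11 (73.3%) held a CHR match, 14 (93.3%) a CCAAT match and 11 (73.3%) both, where 17.9%, 37.4% and 6.95% of all 32851 promoter windows did. An E2F match was in 4 of 9 S-phase windows (44.4%) and in 0.813% of all windows, and a CCAAT match in 8 of the 9. Neither a CHR nor an E2F match was found in the 7 windows of G1 drivers. The 27 windows of other G2/M genes, which are no members, held a CHR match in 19 (70.4%) and a CCAAT match in 16 (59.3%). A match is a run of letters and was not tested as a binding site.

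The window of Mki67 held both the CHR element and the CCAAT box, as did those of Top2a and Cdc20, which were lower. Its CCAAT matches were at -188, -166 and -141 and its CHR matches at -116 and -98 from the start. For either element, each other G2/M window that held it had a match nearer to the start. Top2a held 6 CCAAT and 2 CHR matches, the nearest at -58 and -23, and Cdc20 held CCAAT at -53 and -8 with CHR at -18. Whether this distance bears on the level of Mki67 was not tested. The 250 bases before the start of 5 genes follow, for the gene that rose, for G2/M genes with lower counts in GMTMS-iCMs and for Mcm6, the S-phase gene that fell. They are written 5′ to 3′ on the strand of the gene, with matches in capitals: ATTGG and TTCAAA are the CCAAT box and the CHR element read from the other strand.
Mki67, chr7:135716380-135716629, minus strand: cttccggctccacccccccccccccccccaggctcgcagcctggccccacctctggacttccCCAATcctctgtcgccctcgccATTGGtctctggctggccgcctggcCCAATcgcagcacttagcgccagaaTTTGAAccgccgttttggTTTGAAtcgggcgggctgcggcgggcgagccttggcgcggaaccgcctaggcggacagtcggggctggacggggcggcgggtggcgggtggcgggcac
Top2a, chr11:99024190-99024439, minus strand: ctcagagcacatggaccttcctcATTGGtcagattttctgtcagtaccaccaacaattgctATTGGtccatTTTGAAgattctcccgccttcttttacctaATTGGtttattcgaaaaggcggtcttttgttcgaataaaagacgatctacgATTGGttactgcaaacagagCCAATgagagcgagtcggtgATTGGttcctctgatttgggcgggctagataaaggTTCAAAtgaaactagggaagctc
Cdc20, chr4:118437344-118437593, minus strand: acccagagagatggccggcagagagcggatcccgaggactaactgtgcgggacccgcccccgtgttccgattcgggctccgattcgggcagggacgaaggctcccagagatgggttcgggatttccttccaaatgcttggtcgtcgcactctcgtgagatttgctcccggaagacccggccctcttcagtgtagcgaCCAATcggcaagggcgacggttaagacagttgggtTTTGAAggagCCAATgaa
Cdk1, chr10:69352913-69353162, minus strand: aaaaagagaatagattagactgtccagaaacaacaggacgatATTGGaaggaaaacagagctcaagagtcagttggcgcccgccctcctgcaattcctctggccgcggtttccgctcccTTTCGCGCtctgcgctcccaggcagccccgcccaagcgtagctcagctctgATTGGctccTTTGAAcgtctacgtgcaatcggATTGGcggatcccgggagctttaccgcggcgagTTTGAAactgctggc
Mcm6, chr1:128359706-128359955, minus strand: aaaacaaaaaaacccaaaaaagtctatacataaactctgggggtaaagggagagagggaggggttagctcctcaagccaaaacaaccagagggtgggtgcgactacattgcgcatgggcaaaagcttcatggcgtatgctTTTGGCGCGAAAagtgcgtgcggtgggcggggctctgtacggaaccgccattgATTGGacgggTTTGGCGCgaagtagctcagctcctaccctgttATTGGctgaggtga
In Mcm6 the first run of capitals is a pair of overlapping E2F matches, 1 on each strand. Cdk1 held an E2F match beside its CHR and CCAAT matches, the only one among the 15 G2/M windows.

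**Figure D4:**
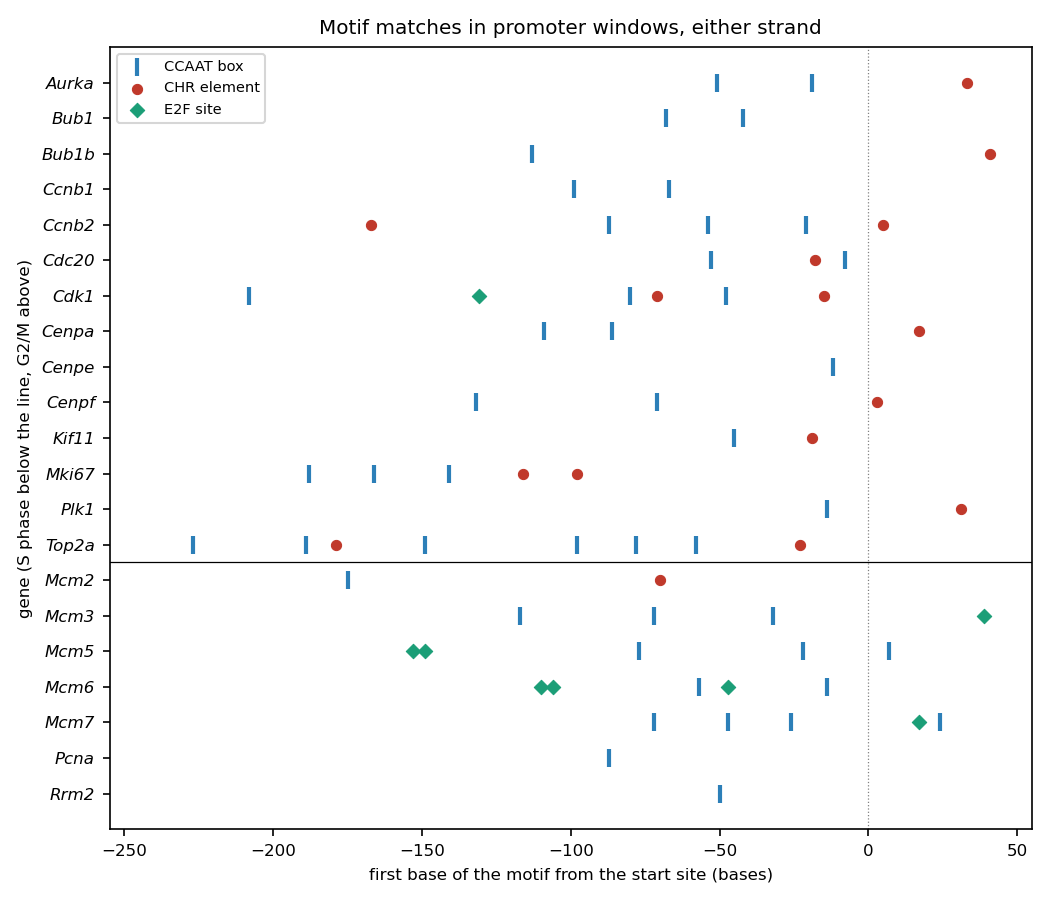
Position of each CCAAT box, CHR element and E2F match, as the distance of its first base from the start site in bases (x axis), in the promoter windows of G2/M genes (above the line) and S-phase genes (below) with at least 1 match; Mcm7 has more than 1 start site and its windows are overlaid. CHR matches appear in 11 of 15 G2/M windows and in 1 of 9 S-phase windows, and E2F matches in 1 and 4.

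The G1 drivers showed the widest spread. Ccnd2 had 3119, 322 and 1731 counts, or 23.0, 3.69 and 15.8 FPKM. It fell by 2.52 in GMTMS-iCMs, a 6.25-fold lower FPKM (5.57 to 7.03), which was the lowest difference of the 45, and by 1.70 against the library labelled GMTMM. Ccnd1 had 1598, 335 and 710 counts and fell in both iCM libraries, by 1.75 and 1.12, with FPKM 3.08-fold (2.74 to 3.47) and 1.83-fold (1.67 to 2.00) lower. Ccnd3 had 801, 161 and 370 counts and fell by 1.23 in GMTMS-iCMs, 3.21-fold lower (2.71 to 3.83), with a difference of -0.72 in the library labelled GMTMM. All 3 D cyclins, the growth-factor-responsive partners of CDK4 and CDK6, were thus lowest in GMTMS-iCMs and highest in MICFs, and their summed FPKM was 52.96, 13.3 and 32.3.

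The 2 kinases they bind went opposite ways in GMTMS-iCMs. Cdk6 had 824, 2509 and 1209 counts, or 4.09, 19.3 and 7.40 FPKM. It rose by 1.95 in GMTMS-iCMs, a ratio of 4.72 (4.36 to 5.11), and its difference in the library labelled GMTMM was 0.72. Cdk4 had 1431, 557 and 1156 counts and fell by 1.05 in GMTMS-iCMs, 1.66-fold lower (1.50 to 1.83). The ratio of Cdk6 to Cdk4 FPKM was 0.134, 1.05 and 0.243. The fall of Cdk4 held in 4 of 6 settings, at -0.70 without quantile normalization and -0.81 on the TMM scale, and 29.5% of its 50-base words occur in other genes.

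The later G1 genes were closer to MICFs on the scale of the differences. Ccne1 and Ccne2, the cyclins that pair with CDK2 at the G1/S boundary, had 49, 25 and 59 counts and 57, 19 and 38 counts. Their differences were -0.07 and -0.34 in GMTMS-iCMs. By FPKM, Ccne2 was 1.94-fold lower there (1.13 to 3.45), a larger fold than the 1.66 of Cdk4. Ccne1 was 1.27-fold lower, with an interval from 0.766 to 2.14. Cdk2 had 402, 177 and 168 counts and differences of -0.33 and -0.73, so it was the G1 gene whose value in GMTMS-iCMs exceeded that of the other iCM library by the most after Cdk6, 0.41. E2f1, the transcription factor that starts S-phase genes, had 318, 193 and 223 counts, with -0.08 and -0.25. For Ccnd1, the fall in the library labelled GMTMM held in 4 of 6 settings (-0.82 and -0.90 in the others), and 23.4% of its exon bases lie under an antisense gene, LTO1, whose reads cannot be told apart without strand.

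Of the 9 S-phase genes, 7 had differences below 0 in GMTMS-iCMs (55.3% of all tested genes) and 1, Mcm6, fell (8.8% of all tested genes). Mcm6, a subunit of the replicative helicase, had 808, 209 and 616 counts, or 12.0, 4.82 and 11.3 FPKM. It fell by 1.23 in GMTMS-iCMs, 2.50-fold lower (2.14 to 2.92), and its difference in the library labelled GMTMM was -0.25. The other helicase subunits differed by -0.37 for Mcm2, -0.62 for Mcm3, 0.37 for Mcm4, -0.83 for Mcm5 and -0.71 for Mcm7 in GMTMS-iCMs. By FPKM, Mcm5 was 2.73-fold lower (1.95 to 3.90), a larger fold than that of Mcm6. Mcm7 was 2.19-fold lower (1.70 to 2.86), Mcm2 1.64-fold and Mcm3 1.56-fold. The 6 subunits, which work as 1 ring, summed to 37.4, 22.8 and 32.5 FPKM. Mcm4 was the one subunit above MICFs there, with 262, 223 and 237 counts, a value that lay at 0.950 of MICFs on library totals.

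Pcna, the sliding clamp of DNA polymerase, went apart from the helicase. It had 1282, 1701 and 1616 counts, or 37.1, 76.3 and 57.6 FPKM, and its FPKM ratio to MICFs was 2.06 (1.91 to 2.21) in GMTMS-iCMs, beside 1.55 (1.44 to 1.67) in the library labelled GMTMM. The quantile-normalized differences were smaller, 0.50 and 0.15, and did not pass 1. Its ratio to the summed helicase subunits was 0.994, 3.35 and 1.78. Part of its sequence is shared, with 31.8% of its 50-base words found in other genes, and Mcm7 shares 34.2%.

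The nucleotide synthesis genes Rrm2 and Tyms, for the small subunit of ribonucleotide reductase and thymidylate synthase, had 79, 23 and 74 counts and 121, 36 and 106 counts. Their differences were -0.53 and -0.45 in GMTMS-iCMs, beside 0.18 and 0.11 in the library labelled GMTMM. Their FPKM were 2.22-fold (1.38 to 3.70) and 2.17-fold (1.48 to 3.24) lower in GMTMS-iCMs than in MICFs. For both, GMTMS-iCMs were low beside a pair of libraries that lay close together.

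The inhibitors were the most abundant group, with summed FPKM of 134.5, 227 and 215, and most of that sum was Cdkn1a. Cdkn1a, the gene of p21 and a target of p53, had 3482, 5575 and 5725 counts, or 68.1, 169 and 138 FPKM. The FPKM ratios to MICFs were 2.48 (2.38 to 2.59) and 2.03 (1.94 to 2.11), and on library totals 1.79 and 1.64. The quantile-normalized differences were 0.66 and 0.42, under 1, whereas without quantile normalization they were 1.30 and 1.01. Both iCM libraries lay above MICFs on every scale tried, and the 2 iCM libraries differed by 0.24.

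Cdkn1b, the gene of p27 and the other Cip/Kip member of the set, had 978, 339 and 686 counts and went the other way. Its differences were -0.98 in GMTMS-iCMs, 1.86-fold lower (1.64 to 2.11), and -0.40 in the library labelled GMTMM. The ratio of Cdkn1a to Cdkn1b FPKM was 4.56, 21.1 and 10.7 in the 3 libraries. The ratio of the summed D cyclins to Cdkn1a was 0.778, 0.0788 and 0.234.

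The INK4 inhibitors block CDK4 and CDK6. Cdkn2a, whose locus encodes both p16 and p19ARF and was counted as 1 gene, had 183, 100 and 207 counts, with differences of -0.31 and 0.29. Cdkn2b, the gene of p15, had 160, 59 and 219 counts, or 8.0, 4.57 and 13.5 FPKM. Its differences from MICFs were -0.68 and 0.60, so it was lower in GMTMS-iCMs than in the library labelled GMTMM by 1.28, a 2.95-fold lower FPKM (2.20 to 4.00). Cdkn2c, the gene of p18, had 312, 169 and 211 counts and differences of -0.24 and -0.31.

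The pocket proteins Rb1 and Rbl1 (p107), which hold E2F factors in check, were lower in the library labelled GMTMM. Rb1 had 791, 694 and 393 counts, or 9.14, 12.4 and 5.59 FPKM, with differences of 0.30 and -0.72, and it was higher by 1.02 in GMTMS-iCMs than in the library labelled GMTMM, a ratio of 2.22 (1.96 to 2.52). That call was lost on library totals, at 0.87, and 14.9% of the exon bases of Rb1 lie under antisense genes, Lpar6 and Rcbtb2. Rbl1 had 235, 166 and 136 counts with differences of 0.24 and -0.30. Trp53, the gene of p53, had 736, 543 and 987 counts, with differences of -0.01 and 0.47.

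Other genes of the cycle that are no members were read in the same way. In GMTMS-iCMs 9.06% of all tested genes rose, 8.8% fell and 55.3% were below 0. Of 27 other G2/M genes, 1 rose and 1 fell there, 22 were below 0, and their median was -0.38, beside -0.36 for the 18 G2/M members without Mki67. Pttg1, the gene of securin, rose in both iCM libraries, by 1.28 and 1.19 from 111 counts in MICFs to 196 and 237. Smc4, a condensin subunit, fell by 1.05 in GMTMS-iCMs (913, 279 and 577 counts), and the mitotic kinesin Kif20a and the midzone protein Prc1 had differences of -0.96 and -0.73.

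Of 20 other S-phase genes, 2 rose and 1 fell in GMTMS-iCMs, with a median of 0.06. Chaf1b, a subunit of the chromatin assembly factor CAF-1, rose by 1.25 (54, 128 and 135 counts) and the licensing factor Cdt1 by 1.01 (132, 189 and 134 counts). Uhrf1, which recruits the maintenance DNA methyltransferase, fell by 1.05 (151, 22 and 114 counts), and the ligase Lig1 had a difference of -0.75. Of the 20, 9 were below 0, and the median lay above the -0.53 of the 9 S-phase members. The direction depended on the scaling, since 17 of the 20 were lower than in MICFs on library totals, where 72.0% of all tested genes were.

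Of 8 other G1 genes, 1 fell in GMTMS-iCMs, where 8.8% of all tested genes fell. In the library labelled GMTMM 1 rose, where 6.45% of all tested genes rose. Cks1b, a CDK-binding subunit, fell by 1.03 in GMTMS-iCMs (132, 35 and 113 counts). Myc had 325, 389 and 1149 counts and rose by 1.85 in the library labelled GMTMM, with a difference of 0.72 in GMTMS-iCMs. E2f3 had a difference of 0.62 in GMTMS-iCMs and E2f2 one of -0.61, the latter from 44 counts in MICFs to 2, which leaves a ratio of 0.0704 with an interval from 0.0083 to 0.27.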

How the data were processed

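Total RNA of 3 libraries, 1 per condition, was sequenced as paired reads of 150 bases. The authors deposited raw counts per gene and, in a second table, FPKM per gene. The submitters' processing notes name HISAT2 2.0.5 and mm9. How reads were counted, whether by strand and what became of those matching more than 1 place is not given in the sources used here. The gene coordinates are not those of mm9: 98.3% of 54409 shared identifiers have the coordinates of GENCODE M21 on GRCm38. The deposited FPKM use a library size equal to a median-of-ratios size factor (1.26, 0.811 and 1.02 in the order MICFs, GMTMS-iCMs, library labelled GMTMM) multiplied by the geometric mean of the totals. The MICF column carries the abbreviation cMF and was matched to MICFs, since each remaining column carries the name of a cocktail.

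The FPKM of the 3 libraries were quantile-normalized with ties averaged, then taken as log2 (value + 1), as in the study. Genes with over 10 counts in at least 1 library were kept, and a difference over 1 was called. Folds have Clopper-Pearson 95% intervals, whose width is set by the counts of the gene in the libraries compared and which are scaled by the FPKM library sizes. Intervals and the floor of 3 counts cover counting error only. The steps were tested on simulated data.

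The 45 genes, their groups and the other lists were chosen with earlier results of these data known. Named are all members and, of each other list, at most 4 genes with the largest absolute difference of GMTMS-iCMs from MICFs, provided that the higher of the pair had over 10 counts; the markers and delivered factors check the labels. Genes named because they passed a difference of 1 in another comparison were picked with their values in view.

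The alternatives were no quantile normalization, FPKM on library totals, edgeR's TMM-scaled log2 CPM (prior count 2), a pseudocount of 0.1, only genes reaching an FPKM of 1 in a library, and differences over 2 or 0.5. Sequence shared between genes was taken from GENCODE M21, as exon bases within exons of other genes and as 50-base words of the transcripts found in other genes; 5 members share over 20% of words, namely Ccnb1, Mcm7, Pcna, Cdk4 and Ccnd1. Promoter windows are RefSeq's on GRCm38.p6. Tools were R 4.3.3 with edgeR 4.0.16 and Python 3.11.15 with SciPy 1.17.1, pandas 2.3.3, numpy 2.4.6 and matplotlib 3.10.9.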

Additional observations from a re-analysis of the deposited data

Results flagged for a closer look

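Cdkn2b, the gene of the INK4 inhibitor p15, lay on opposite sides of MICFs in the iCM libraries, with a difference of -0.68 in GMTMS-iCMs against 0.60 in the library labelled GMTMM, and so of -1.28 between them. The counts were 59 and 219 there, and 160 in MICFs. Each condition has 1 library, so the difference was not tested. It was picked out because both values lay beyond 0.5 in opposite directions, a limit chosen after the data were seen. Several marker lists moved the same way between the iCM libraries: fibroblast (198 and 2580 FPKM in sum), endothelial (13.3 and 350), smooth muscle (402 and 537) and lymphocyte (0.362 and 3.16). The cardiomyocyte (1318 and 494) and macrophage (17260 and 8187) sums went the other way. The part of any of these lists in the value of Cdkn2b was not tested.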

How the results depend on the processing

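No paired analysis was possible because the 3 conditions have a single library each. For the 45 genes, the counts that rose and fell in GMTMS-iCMs (2 and 7) were 4 and 6 without quantile normalization, where Cdkn1a and Pcna passed 1, 2 and 14 on library totals, 3 and 14 with TMM, and 2 and 11 with a pseudocount of 0.1. Of all 15451 tested genes, 1400 rose and 1359 fell there on the scale used above. The counts were 1591 and 1345 without quantile normalization and 1007 and 2281 on library totals. With TMM they were 2255 and 3217, and with a pseudocount of 0.1 they were 2238 and 2672. The settings that gave more falls among the 45 genes thus gave more over all tested genes too. In the library labelled GMTMM the counts of the 45 genes (1 and 1) were 2 and 0 without quantile normalization, 0 and 1 on library totals and 1 and 0 with TMM. Over all tested genes the counts there (997 and 548) were 1153 and 393, 851 and 909, and 2102 and 1681 in the same order. Between the iCM libraries (3 and 4), 13 of the 45 genes were lower with TMM and 8 with a pseudocount of 0.1. Over all tested genes the lower ones numbered 1418 on the scale used above, 2942 with TMM and 2436 with a pseudocount of 0.1. At a difference over 2 the pairs of the 45 genes were 1 and 1, 0 and 0, and 0 and 0, and over 0.5 they were 4 and 16, 5 and 7, and 4 and 18. The share of all tested genes at these limits was not taken. The median of the 45 genes in GMTMS-iCMs was -0.78 on library totals, -0.81 with TMM and -0.61 with a pseudocount of 0.1. In the library labelled GMTMM it was -0.31 on library totals, and between the iCM libraries -0.71 with TMM. Library totals also shifted the median of all tested genes, to -0.34, -0.20 and -0.09 in these comparisons, from -0.07, -0.08 and 0.06. With them the share of calls over all tested genes that were higher was 30.6%, 48.4% and 27.1%, beside 50.7%, 64.5% and 40.2%. In the second comparison it was 74.6% without quantile normalization and 53.6% with a pseudocount of 0.1.

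No called gene changed sign under any setting. Called in all 6 settings of scale and filter were the rise of Mki67 and Cdk6 and the fall of Ccna2, Ccnd1, Ccnd2, Ccnd3, Cdc20 and Mcm6 in GMTMS-iCMs; between the iCM libraries they were Mki67 and Cdk6 higher and Ccna2, Ccnd2, Cdc20 and Cdkn2b lower. In the library labelled GMTMM 0 calls held in all 6: Mki67 held in 5 and Ccnd1 in 4. Below 0 in every setting were 35, 29 and 33 of the 45 genes. The share of all tested genes below 0 in every setting was not taken. On the scale used above 55.3%, 56.7% and 45.1% of them were below 0, and on library totals 72.0%, 65.5% and 57.8%. The cause of the shifts between settings was not tested beyond their construction. Genes with 19 to 25 counts in GMTMS-iCMs, such as Ccna2, Plk1 and Cdc20, have the widest intervals.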

Other observations

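Of 14 listed targets of p53 other than Cdkn1a, 2 rose and 3 fell in GMTMS-iCMs, where 9.06% of all tested genes rose and 8.8% fell. Their median was -0.57. In the library labelled GMTMM 1 rose and 1 fell, where 6.45% and 3.55% of all tested genes did, and the median was -0.22. Mdm2, the ubiquitin ligase that holds p53 down, had 1598, 3182 and 2936 counts (in the order MICFs, GMTMS-iCMs, library labelled GMTMM) and rose by 1.19 in GMTMS-iCMs. Phlda3, an inhibitor of Akt, had 1160, 148 and 701 counts and fell by 2.61 in GMTMS-iCMs, beside -0.90. Sesn1, a stress-induced regulator of mTORC1, had 1849, 275 and 230 counts and fell in both iCM libraries, by 2.26 and 2.81. Trp53inp1 fell by 1.31 in GMTMS-iCMs, beside -0.83.

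Of 12 other genes with inhibitory roles, 2 rose and 1 fell in GMTMS-iCMs, beside the same 9.06% and 8.8%. In the library labelled GMTMM 1 rose and 1 fell, beside 6.45% and 3.55%. The antiproliferative pair Btg1 and Btg2 went opposite ways in both iCM libraries. Btg1 had 2180, 7598 and 6370 counts and rose by 1.93 and 1.42, and Btg2 had 5191, 1360 and 2630 counts and fell by 1.92 and 1.27. Lin54, the DNA-binding subunit of the MuvB complex that reads the CHR element, had 184, 407 and 267 counts and rose by 1.49 in GMTMS-iCMs, with 0.65 in the library labelled GMTMM. E2f5, a repressive E2F factor, had differences of 0.95 and 0.35.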
